A study of Mus musculus with 6 samples.

Results

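The semaphorin, ephrin, Slit and netrin families are the classic guidance systems of growing axons, and 69 protein-coding genes of these ligands and receptors were described in melanoma grafts. They were found by symbol among the 55487 gene IDs of the count table, after the IDs were matched to GENCODE M21. The rule took semaphorins of classes 3 to 7, plexins, neuropilins, ephrins, Eph receptors, Slits, Robos, netrins, Dcc and the Unc5 receptors. RNA had been sequenced from 6 whole grafts of B16F10, a pigmented mouse melanoma line, grown under the mucosa of the tongue in immune-competent wild-type C57BL/6J mice. Of these, 3 were inhibition grafts and 3 were control grafts. Per the design text, the cervical lymph nodes of every mouse received a retrograde vector 6 weeks before the tumour cells. It was AAV2/retro-Trpv1-hM4D(Gi)-mCherry for inhibition or AAV2/retro-Trpv1-mCherry as its control, where hM4D(Gi) is an engineered inhibitory receptor that a synthetic drug switches on, and mCherry is a fluorescent tag. Deschloroclozapine, that drug, was given 2 times per day for 12 days. The sample labels call the controls vehicle-treated, so whether the controls received the drug cannot be told from the labels and the design text together. The age of the mice is not given, and neither is whether each graft came from a different animal, so the p-values cover the spread between these 6 samples, which may be technical. The vector was placed in the nodes and not in the graft, and neither transgene had a row in the count table. Non-tumour tissue had been trimmed off before RNA was taken from the entire graft.

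Guidance receptors sit on the membrane and turn contact with a ligand into a change of the cell's skeleton. Plexins, with neuropilins as co-receptors, read semaphorins; Eph receptors are tyrosine kinases that read membrane-bound ephrins on a neighbouring cell, and ephrins can signal back; Robo receptors read Slits; Dcc and Unc5 receptors read netrins. The same molecules act outside the nervous system, in blood vessels, epithelia, immune cells and tumours, and melanocytes come from the neural crest, whose migration they steer. A whole graft holds tumour cells together with host stroma, vessels and any tongue tissue left after trimming, so fewer cells of a type and less RNA per cell cannot be told apart.

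Of the 69 genes, 60 passed the count filter and were tested. The other 9, Plxnb3, Efna2, Epha6, Epha8, Epha10, Robo3, Ntn5, Dcc and Unc5d, had at most 12 counts in any library. Epha6 and Unc5d had 0 counts in all 6 libraries. The tested genes were not passed evenly: 55 reached the filter of 0.560 CPM (counts at an equal total for all libraries) in every library of both groups, Epha5 in all libraries of neither, and Efna3, Ephb1, Slit1 and Unc5a in all inhibition libraries but not in all control libraries. These 4 reached the filter in every library only in the group in which they were higher.

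By level per length, the grafts were dominated by semaphorin receptors. Plexins made up 54.4% to 56.5% of the summed RPKM (CPM per kilobase of exon) of the 69 genes in inhibition libraries and 55.6% to 57.7% in control libraries, and the neuropilin pair a further 9.02% to 10.03% and 8.99% to 9.53%. Membrane-bound semaphorins held 12.4% to 13.3% in inhibition libraries and 13.6% to 15.5% in control libraries. Secreted semaphorins held 5.27% to 6.27% and 4.17% to 5.92%. Slits, the scarcest ligands together with netrins, held 0.840% to 0.893% in inhibition libraries and 0.546% to 0.781% in control libraries. Among tested genes the lowest level was that of Epha5, at 0.036 RPKM in inhibition grafts and 0.030 RPKM in control grafts. At the top stood Plxna1, a receptor of class 3 and class 6 semaphorins, with a mean of 89.1 RPKM in inhibition grafts and 75.8 RPKM in control grafts. Next came Plxnd1, the receptor of Sema3e, and Plxnb2, a receptor of class 4 semaphorins, with means over all 6 libraries of 69.2 and 61.5 RPKM. Nrp2, the neuropilin that binds Sema3f, had 36.7 RPKM over all 6 libraries, and Sema3b and Sema4c, the leading ligands, had 15.02 and 14.5 RPKM. Dcc, the netrin receptor of growing axons, was close to the detection limit: it had 11 counts in all inhibition libraries together and 7 in the controls.

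**Figure D1:**
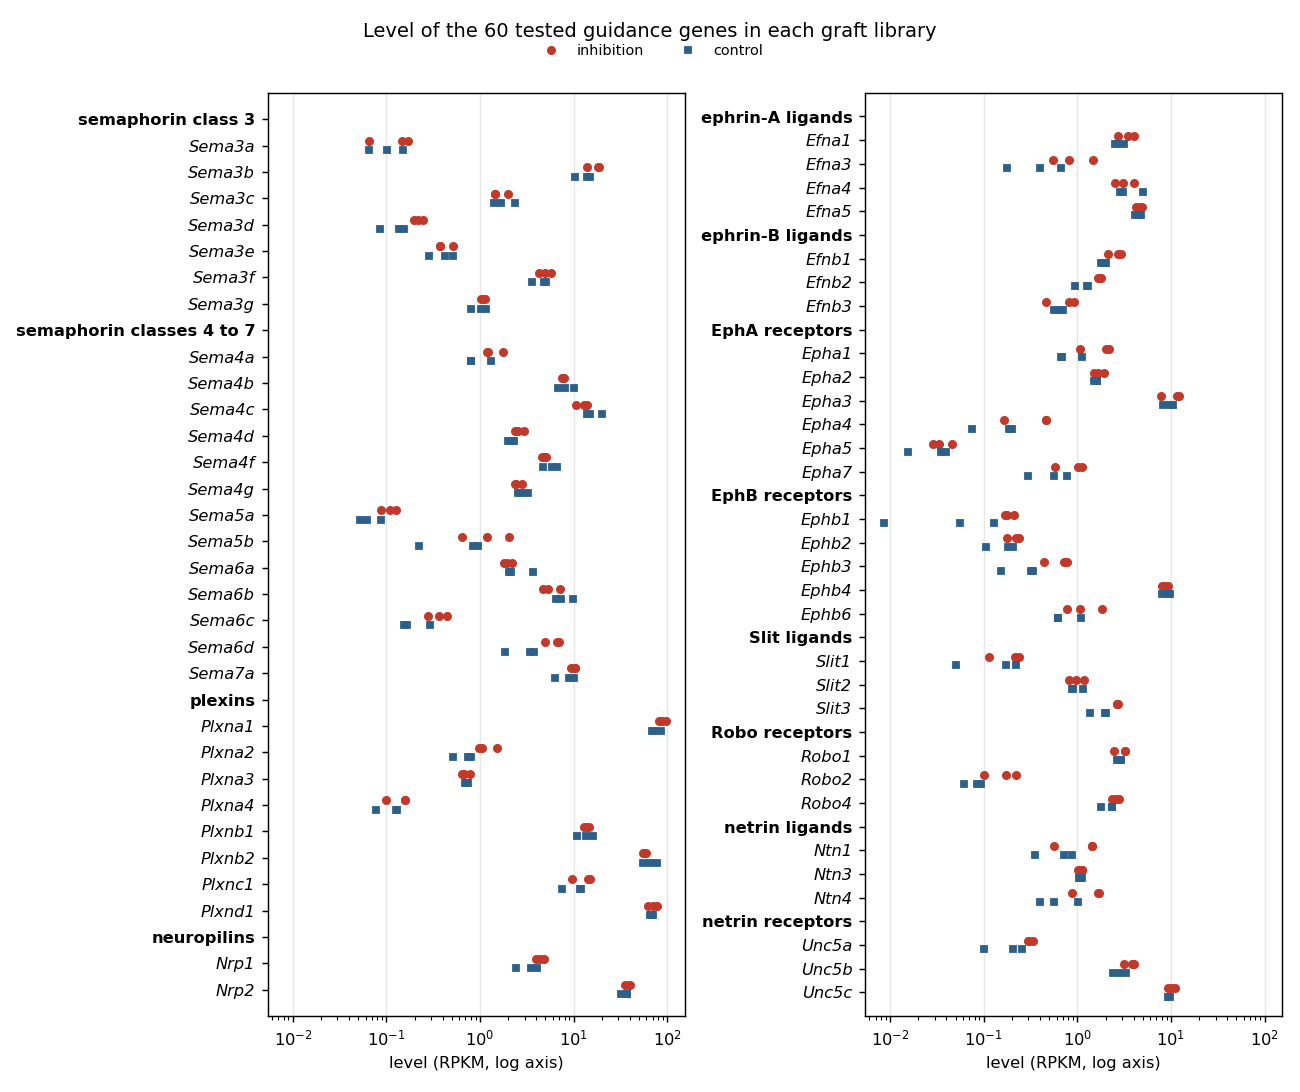
Level of each of the 60 tested guidance genes in RPKM on a log axis, with the 3 inhibition libraries as red circles above the 3 control libraries as blue squares, grouped by role. Plxna1, Plxnd1, Plxnb2 and Nrp2 lie above the other genes, and most genes overlap between the groups, while Sema6d, Plxna2, Efnb2 and Slit3 do not.

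In no guidance gene did the difference between inhibition and control pass the test. By edgeR's quasi-likelihood test with Benjamini-Hochberg adjustment over all 15666 genes tested, 0 of the 60 were called at an adjusted p under 0.05, and the smallest adjusted p among them was 0.186. The background was 6 called genes, 0.0383% of those tested, of which 5 were higher (0.0319%) and 1 lower (0.00638%). By DESeq2, 2 of the 60 were called higher under inhibition, Sema6d and Plxna2 (3.33%, against 2.2% of all genes tested), and 0 lower (background 1.17%), while limma-voom called 0 of the 60 and 0 of all genes. At an unadjusted edgeR p under 0.05, 17 of the 60 were higher (28.3%, against 8.36% of all genes tested) and 1 was lower (1.67%, against 7%). The inhibition libraries lay entirely above the control libraries for 12 genes (20%, background 10.2%) and entirely below for 1 (1.67%, background 11%). The 12 were Sema3d, Sema4d, Sema6d, Plxna2, Efnb1, Efnb2, Ephb1, Ephb3, Slit3, Robo2, Robo4 and Unc5a, and the 1 below was Sema4c. Ephb1 and Unc5a among the 12, and Efna3 and Ephb1 among the 17, reached the filter in every library only in the inhibition group. Over the 55 genes that reached the filter in every library of both groups, 15 were higher at an unadjusted p under 0.05 (27.3%, against 7.64% of all genes with that property) and 10 lay entirely above (18.2%, against 9.62%).

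The direction was mostly upward and the size small. Of the 60 log2 fold changes, inhibition over control, 49 were positive, or 81.7% against 51% of all genes tested. Their median was 0.27 (quartiles 0.03 to 0.67), against 0.0049 over all genes tested (quartiles -0.13 to 0.19). The count of 17 ran from 6 to 20 when single grafts were left out. Without inhibition 1, 7 guidance genes were higher at an unadjusted p under 0.05 (11.7%, against 4.75% of all genes tested in that fit). Without inhibition 2 there were 6 (10.2%, against 4.9%), and without control 1 there were 11 (17.7%, against 5.22%). Without inhibition 3 there were 20 (32.8%, against 9.72%), without control 2 there were 17 (27.4%, against 10.2%), and without control 3 there were 13 (21.3%, against 6.85%). With a covariate for muscle, the mean log2 CPM of muscle markers in a graft, 1 of the 60 was higher. At 1.67% this is near the 1.22% of all genes, and that gene was not among the 17. In that fit 1 of the 60 was lower, as were 318 of all 15666 genes tested, and the median of the 60 was 0.14.

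The differences were larger in scarce genes. Among the 30 genes with a mean under 8.85 CPM, which is the median level of the tested members, the median log2 fold change was 0.59, and 28 were positive. These 30 include all 4 genes that reached the filter in every library only in the inhibition group. Over the 25 of them at the filter in every library of both groups, the median was 0.53 and 23 were positive. Among the 30 genes above it the median was 0.093, and 21 were positive. All genes tested showed a smaller slope of the same kind, with medians of 0.14 below that level (0.11 over those at the filter in every library) and -0.022 above it. At an unadjusted p under 0.05, 33.3% of the scarcer members and 23.3% of the more abundant ones were higher, against 12.5% and 6.06% of all genes on the same sides of the level. Over genes at the filter in every library of both groups, the share on the scarcer side was 32%, against 11.5% of all genes. This split was chosen after the values were seen.

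**Figure D2:**
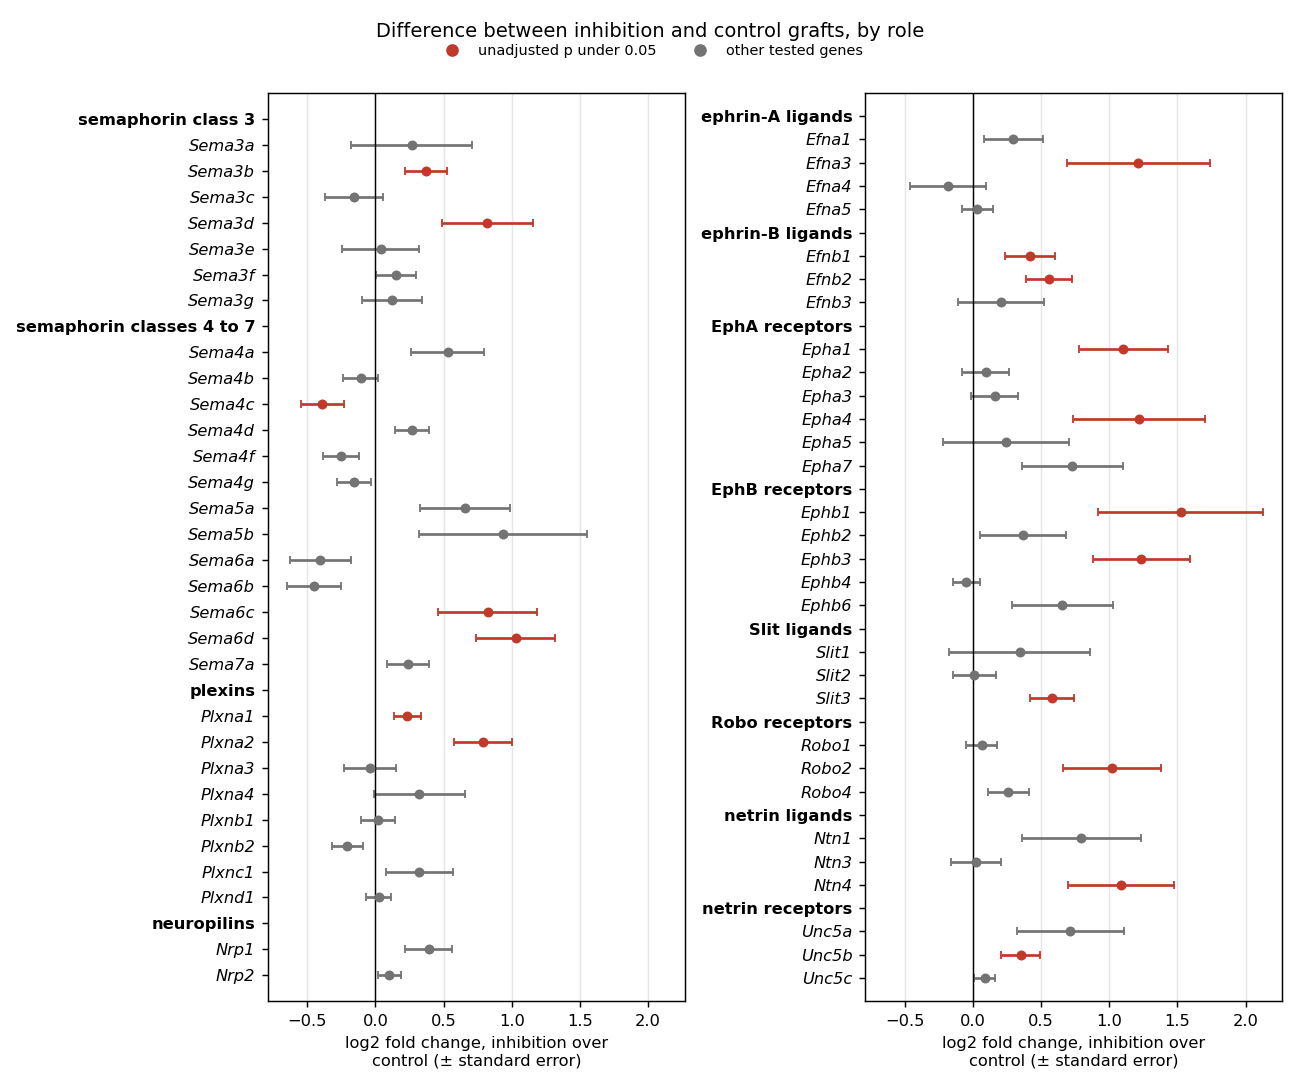
Log2 fold change of inhibition over control with its standard error for each of the 60 tested guidance genes, by role; red marks an unadjusted edgeR p under 0.05. The points lie mostly right of 0, Sema4c is the red point left of it, and the widest errors belong to scarce genes such as Ephb1.

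The gene of smallest p in each of the 4 systems was Plxna2 among semaphorins and their receptors, Ephb3 among ephrins and Eph receptors, Slit3 among Slits and Robos, and Ntn4 among netrins and their receptors. Their promoters are shown because the 4 lead their systems in the same direction. Each is printed from 250 bases before to 50 bases after the RefSeq start on GRCm38.p6, 5′ to 3′ on the strand of the gene, and capitals mark the GC box GGGCGG on either strand, the short motif bound by Sp1-type factors. The windows are chr1:194619579-194619878 for Plxna2, chr16:21204545-21204844 for Ephb3, chr11:35121206-35121505 for Slit3 and chr10:93640799-93641098 for Ntn4, all on the plus strand. In GENCODE M21, the windows of Plxna2 and Ntn4 lie wholly inside the gene spans given below, and that of Slit3 mostly. For these genes the RefSeq start used lies downstream of the GENCODE start, so the windows are not upstream of the annotated genes.
Plxna2: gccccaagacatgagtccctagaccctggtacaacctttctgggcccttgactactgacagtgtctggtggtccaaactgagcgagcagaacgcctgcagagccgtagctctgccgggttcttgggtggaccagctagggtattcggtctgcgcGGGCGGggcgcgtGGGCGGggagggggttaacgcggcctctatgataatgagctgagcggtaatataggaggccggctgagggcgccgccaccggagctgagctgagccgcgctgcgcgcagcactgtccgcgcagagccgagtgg
Ephb3: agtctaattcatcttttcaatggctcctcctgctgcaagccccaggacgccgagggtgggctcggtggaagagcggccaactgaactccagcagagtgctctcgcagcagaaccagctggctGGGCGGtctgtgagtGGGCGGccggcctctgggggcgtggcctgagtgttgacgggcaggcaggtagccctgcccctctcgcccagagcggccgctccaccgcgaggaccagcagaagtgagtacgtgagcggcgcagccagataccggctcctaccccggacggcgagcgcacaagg
Slit3: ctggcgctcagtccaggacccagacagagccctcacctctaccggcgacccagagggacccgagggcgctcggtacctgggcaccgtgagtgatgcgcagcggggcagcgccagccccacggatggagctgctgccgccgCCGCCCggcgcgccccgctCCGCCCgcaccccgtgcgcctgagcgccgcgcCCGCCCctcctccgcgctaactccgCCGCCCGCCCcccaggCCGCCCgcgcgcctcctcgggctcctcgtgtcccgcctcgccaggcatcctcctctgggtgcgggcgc
Ntn4: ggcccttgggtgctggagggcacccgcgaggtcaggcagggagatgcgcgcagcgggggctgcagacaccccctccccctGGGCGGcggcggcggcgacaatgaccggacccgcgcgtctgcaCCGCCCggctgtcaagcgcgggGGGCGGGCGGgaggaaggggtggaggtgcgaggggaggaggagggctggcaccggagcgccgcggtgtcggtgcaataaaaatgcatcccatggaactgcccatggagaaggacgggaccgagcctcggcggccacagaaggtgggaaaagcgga
The GC box matched 2 times in Plxna2, 2 in Ephb3, 6 in Slit3 and 4 in Ntn4, overlapping matches counted. TATAAA and CACGTG matched in none of the 4 (0 each), and CAGCTG, an E-box of myogenic factors, matched 1 time, in Ephb3. Promoters were listed for 59 of the 69 genes (75 starts). Of these, 70.7% held GGGCGG, against 35.7% of all 32851 listed promoters of the same length. TATAAA was in 2.67% against 13.6%, CACGTG in 6.67% against 7.15%, and CAGCTG in 16% against 16.3%. Both strands were searched, and the motifs do not overlap one another.

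Secreted class 3 semaphorins signal through neuropilins and A-type plexins, and 6 of the 7 lay above 0 in log2 fold change. Their median was 0.15. Sema3b, known as a tumour suppressor in human lung, was the most abundant. It had 87.4, 88.1 and 67.1 CPM in inhibition grafts, against 49.9, 70.7 and 67.2 CPM in control grafts. Inhibition 3 lay inside the range of the controls, and inhibition 1 and 2 lay above it. The edgeR log2 fold change was 0.37 (standard error 0.16, adjusted p = 0.315), and it was 0.22 without control 1 and -0.16 with the muscle covariate. Sema3d, a cue for neural crest and vessel cells, was scarce, at 1.68, 2.10 and 1.86 CPM in inhibition grafts and 1.33, 1.17 and 0.726 CPM in control grafts. Its groups did not overlap, with a log2 fold change of 0.82 (standard error 0.33, edgeR adjusted p = 0.290) that was 0.87 with the muscle covariate. The other 5, among them the repellent Sema3a, ranged from -0.16 to 0.26, all with overlapping groups.

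Membrane-bound semaphorins of classes 4 to 7 were the role with the most mixed directions, 7 of 13 being positive, with a median of 0.24 and a range from -0.45 to 1.03. Sema6d, a ligand of plexin-A1 in the chick heart, showed the clearest difference. In inhibition grafts it had 74.4, 69.9 and 51.8 CPM, and in control grafts 19.4, 36.4 and 40.1 CPM. Every inhibition library lay above every control library, and control 1 was the lowest by a wide step. The means were 65.4 ± 11.9 and 32.0 ± 11.1 CPM (SD, n = 3 each), a log2 fold change of 1.03 (standard error 0.29) with an adjusted p of 0.223 in edgeR and 0.000908 in DESeq2. With the muscle covariate it was 0.26, and it ran from 0.76 without control 1 to 1.23 without control 3. The gene spans chromosome 2 from 124089969 to 124667770 on GRCm38. Sema6c, its scarcer relative, had 2.66, 2.15 and 1.67 CPM in inhibition grafts and 1.75, 0.976 and 0.920 CPM in control grafts (log2 fold change 0.82, edgeR adjusted p = 0.320), with control 1 inside the inhibition range.

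Sema4c, a ligand of plexin-B2, went the opposite way. Its levels were 49.0, 59.2 and 64.1 CPM in inhibition grafts, against 92.9, 64.4 and 68.8 CPM in control grafts. The groups did not overlap, but inhibition 3 and control 2 were almost level, and control 1 stood far above the rest. The log2 fold change was -0.39 (standard error 0.16, edgeR adjusted p = 0.294), -0.22 without control 1 and 0.12 with the muscle covariate. On the other strand an uncharacterised transcript, D430040D24Rik, overlaps 334 exon bases of Sema4c, and without a stated strand setting its reads cannot be told apart from those of Sema4c there. It held 332 counts over all libraries and Sema4c 7152. Control 1 also had the highest level of Sema6a, Sema6b, Sema4b, Sema4f and Sema4g, the other 5 membrane-bound semaphorins with a negative log2 fold change, which ran from -0.45 to -0.11.

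Plexins, the semaphorin receptors, differed little, with a median log2 fold change of 0.13 over 8 tested genes, 6 of them positive. Plxna2, a receptor for secreted and class 6 semaphorins, had the smallest p of all guidance genes. Its levels were 18.1, 25.8 and 16.8 CPM in inhibition grafts, against 8.75, 12.8 and 13.6 CPM in control grafts. No libraries overlapped, and the means were 20.2 ± 4.83 and 11.7 ± 2.61 CPM (SD, n = 3 each). The log2 fold change was 0.79 (standard error 0.21), with an adjusted p of 0.186 in edgeR and 0.0241 in DESeq2. It was 0.57 without inhibition 2 and 0.31 with the muscle covariate. Plxna2 lies on chromosome 1 from 194618218 to 194816869 on GRCm38. Plxna1, the most abundant guidance gene, had 882, 792 and 748 CPM in inhibition grafts and 621, 662 and 775 CPM in control grafts. Control 3 exceeded inhibition 3, and the log2 fold change was 0.23 (standard error 0.10, edgeR adjusted p = 0.310). Counts from Gm26811, an antisense gene that shares 970 exon bases with Plxna1, were few (359 against 80205 over all libraries). For Plxnd1 and Plxnb2 the log2 fold changes were 0.02 and -0.21 (edgeR adjusted p = 0.918 and 0.406).

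Neuropilins bind class 3 semaphorins and also VEGF. Nrp1 had 47.3, 39.1 and 42.7 CPM in inhibition grafts, against 24.0, 34.7 and 39.7 CPM in control grafts. Control 3 lay just above inhibition 2, and control 1 was apart below (log2 fold change 0.39, standard error 0.18, edgeR adjusted p = 0.340, and 0.20 without control 1). For Nrp2 the levels were 469, 417 and 463 CPM under inhibition and 441, 378 and 439 CPM in controls, a log2 fold change of 0.10 (standard error 0.09, edgeR adjusted p = 0.592). Its groups overlapped.

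**Figure D3:**
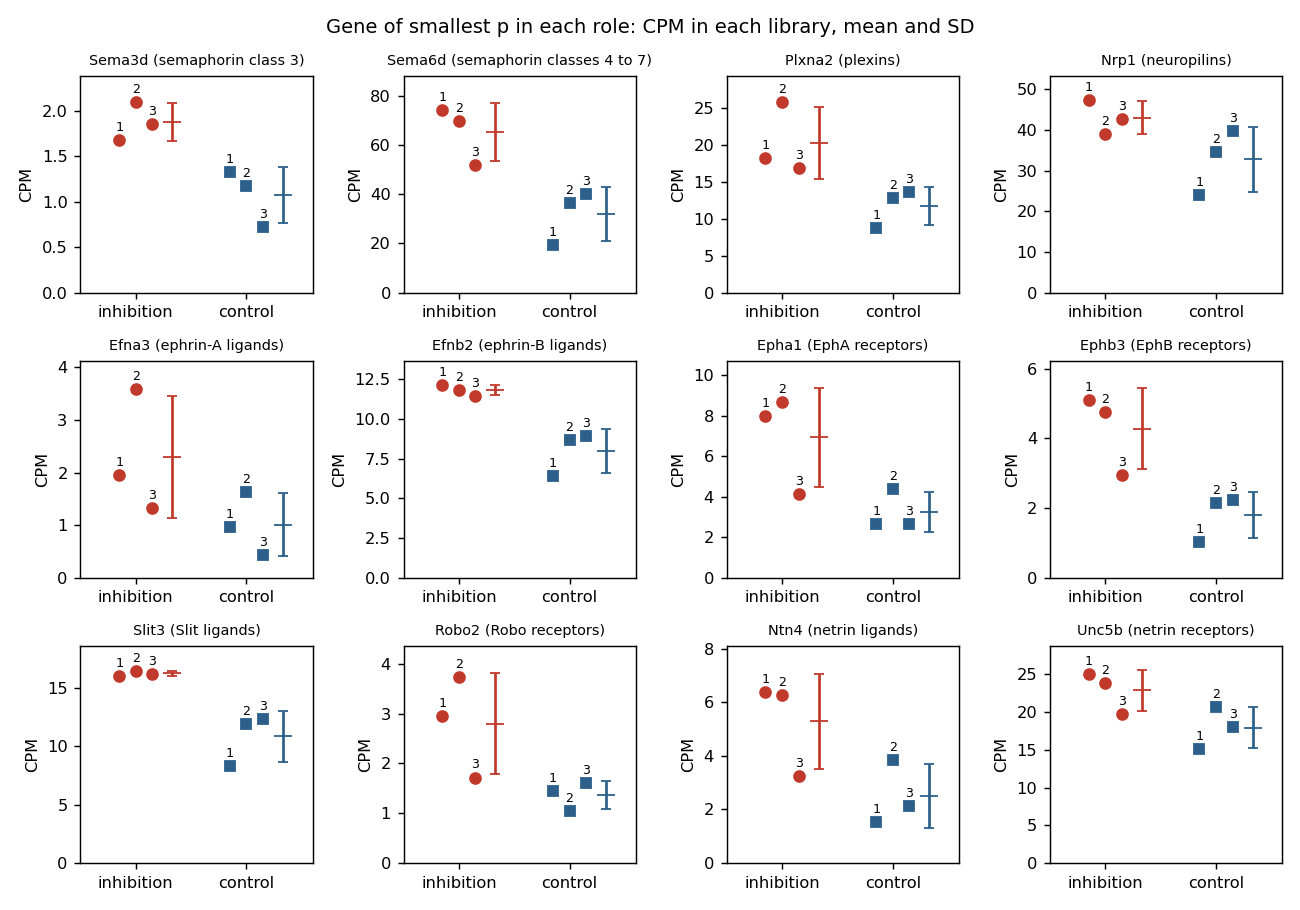
CPM in each library, numbered by replicate, for the gene of smallest p in each of the 12 roles, with inhibition left of control in each panel and the mean and SD (n = 3) beside the points. Groups are separate in Sema3d, Sema6d, Plxna2, Efnb2, Ephb3, Slit3 and Robo2, and inhibition 3 is the lowest inhibition graft in most panels, but not in those of Sema3d, Nrp1 and Slit3.

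Ephrins are the ligands of Eph receptors, held to the membrane by a lipid anchor in the A class and by a transmembrane stretch in the B class. All 3 B-class ligands lay above 0 in log2 fold change (median 0.42). Efnb2, a mark of arterial endothelium and the partner of Ephb4, had 12.1, 11.8 and 11.5 CPM in inhibition grafts, against 6.40, 8.65 and 8.95 CPM in control grafts. The 3 inhibition libraries were nearly equal and all above the controls, with means of 11.8 ± 0.320 and 8 ± 1.4 CPM (SD, n = 3 each). The log2 fold change was 0.56 (standard error 0.17, edgeR adjusted p = 0.204) and 0.28 with the muscle covariate. Efnb1, whose human homologue is mutated in a craniofacial syndrome, had 10.1, 9.33 and 7.39 CPM in inhibition grafts and 7.06, 6.18 and 6.73 CPM in control grafts. Here too the groups were separate (log2 fold change 0.42, standard error 0.18, edgeR adjusted p = 0.312). The A-class ligands had a median of 0.16 over 4 tested genes, 3 of them positive. Efna3, the scarcest tested A-class ligand, had 1.96, 3.59 and 1.33 CPM under inhibition and 0.966, 1.63 and 0.436 CPM in controls, with overlap (log2 fold change 1.21, standard error 0.52, edgeR adjusted p = 0.315). The value was 0.71 without inhibition 2 and -0.036 with the muscle covariate. It shares 344 exon bases with Gm15998 on the other strand, which held 179 counts over all libraries to 176 of Efna3, so its value is uncertain. Efna5, the most abundant A-class ligand per length, had 18.8, 17.0 and 19.8 CPM in inhibition grafts and 18.4, 16.9 and 19.1 CPM in control grafts. Its log2 fold change was 0.03 (standard error 0.11, edgeR adjusted p = 0.911).

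Eph receptors showed the largest log2 fold changes among receptor roles, and these sat in scarce genes. The 6 tested EphA receptors were all positive, with a median of 0.49, and 4 of 5 EphB receptors were positive, with a median of 0.66. Ephb3, a receptor of B-class ephrins that positions epithelial cells in the mouse gut, had 5.12, 4.77 and 2.95 CPM in inhibition grafts, against 1.03, 2.15 and 2.23 CPM in control grafts. No libraries overlapped, and the means were 4.28 ± 1.16 and 1.8 ± 0.671 CPM (SD, n = 3 each). The log2 fold change was 1.24 (standard error 0.36, edgeR adjusted p = 0.196), and 0.21 with the muscle covariate. It lies on chromosome 16 from 21204755 to 21223305 on GRCm38. Ephb1 had 1.47, 1.18 and 1.24 CPM in inhibition grafts and 0.0603, 0.911 and 0.387 CPM in control grafts. Control 1 rested on 1 count, and the log2 fold change of 1.53 (standard error 0.61, edgeR adjusted p = 0.281) was 2.40 without control 2 and 1.02 without control 1. Ephb4, the venous partner of Efnb2 and the most abundant EphB receptor, had 43.1, 37.5 and 40.2 CPM in inhibition grafts and 42.7, 37.2 and 44.8 CPM in control grafts. That pair of partners therefore had log2 fold changes of -0.05 for the receptor (standard error 0.10, edgeR adjusted p = 0.840) and 0.56 for the ligand, a difference between genes that was not tested.

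Among EphA receptors, Epha1, which is made mainly in epithelia, had 7.99, 8.66 and 4.15 CPM in inhibition grafts, against 2.66, 4.36 and 2.66 CPM in control grafts. Inhibition 3 lay below control 2, and the log2 fold change was 1.1 (standard error 0.33) with an adjusted p of 0.204 in edgeR and 0.0504 in DESeq2. It was -0.025 with the muscle covariate. Epha1 shares 236 exon bases with Zyx on the other strand, a gene with 18439 counts over all libraries to 536 of Epha1, so the count of Epha1 is uncertain. Epha4, a receptor for both ephrin classes, had 3.71, 3.69 and 1.33 CPM in inhibition grafts and 0.603, 1.5 and 1.6 CPM in control grafts. It also overlapped through inhibition 3 (log2 fold change 1.22, standard error 0.48, edgeR adjusted p = 0.283). Epha3, the most abundant Eph receptor per length, had 106, 101 and 68.5 CPM in inhibition grafts and 83.9, 91.4 and 71.7 CPM in control grafts, and inhibition 3 was the lowest of all 6 (0.16, standard error 0.17, edgeR adjusted p = 0.690).

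Slits are large secreted repellents, and Robos are their receptors. Slit3, the most abundant Slit per length and a product of stromal and vessel cells, had 16, 16.5 and 16.2 CPM in inhibition grafts, against 8.33, 11.9 and 12.3 CPM in control grafts. The inhibition libraries agreed closely and lay above every control. The means were 16.3 ± 0.228 and 10.9 ± 2.20 CPM (SD, n = 3 each), a log2 fold change of 0.58 (standard error 0.16) with an adjusted p of 0.188 in edgeR and 0.0674 in DESeq2. With the muscle covariate it was 0.31. Slit3 lies on chromosome 11 from 35121224 to 35708507 on GRCm38. The other Slits had log2 fold changes of 0.01 for Slit2 and 0.34 for Slit1, with overlapping groups. Robo1, the most abundant Robo, had 53.4, 40.6 and 53.1 CPM in inhibition grafts and 47.7, 44.0 and 48.7 CPM in control grafts (0.07, standard error 0.11, edgeR adjusted p = 0.809). Its inhibition range enclosed that of the controls. Robo2, a scarce receptor of sensory and kidney development, had 2.94, 3.74 and 1.72 CPM in inhibition grafts and 1.45, 1.04 and 1.6 CPM in control grafts. The groups did not overlap, though inhibition 3 and control 3 nearly met. The log2 fold change was 1.02 (standard error 0.36, edgeR adjusted p = 0.242) and 0.77 with the muscle covariate. Robo4, the endothelial Robo, had a log2 fold change of 0.26 (edgeR adjusted p = 0.430), with separate groups.

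Netrins are laminin-like secreted proteins that attract axons through Dcc and repel them through Unc5 receptors. All 3 tested netrins lay above 0 in log2 fold change, and their median of 0.80 was the highest of the 12 roles. Ntn4, a netrin of basement membranes that binds laminin, had 6.38, 6.25 and 3.24 CPM in inhibition grafts, against 1.51, 3.84 and 2.13 CPM in control grafts. Inhibition 1 and 2 were level with each other, while inhibition 3 lay below control 2. The means were 5.29 ± 1.78 and 2.49 ± 1.21 CPM (SD, n = 3 each), a log2 fold change of 1.09 (standard error 0.39, edgeR adjusted p = 0.252), and -0.37 with the muscle covariate. Ntn4 lies on chromosome 10 from 93640681 to 93747207 on GRCm38. Ntn3, the netrin of highest mean level per length over all 6 libraries but not over the inhibition libraries, had 5.75, 5.69 and 5.24 CPM in inhibition grafts and 5.43, 5.73 and 5.28 CPM in control grafts. The log2 fold change was 0.02 (standard error 0.18, edgeR adjusted p = 0.967). Ntn3 shares 89 exon bases with Tbc1d24 on its own strand. Tbc1d24 held 3728 counts over all libraries to 590 of Ntn3, so the count of Ntn3 is uncertain.

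The netrin receptor present in quantity was Unc5c, a receptor that mediates repulsion and, without ligand, can trigger cell death. It had 211, 178 and 191 CPM in inhibition grafts, against 182, 188 and 176 CPM in control grafts. Groups overlapped, and the log2 fold change was 0.09 (standard error 0.08, edgeR adjusted p = 0.628). Unc5b, an endothelial member of that family, had 25, 23.8 and 19.8 CPM in inhibition grafts and 15.1, 20.6 and 18 CPM in control grafts. Control 2 exceeded inhibition 3 (0.35, standard error 0.14, edgeR adjusted p = 0.290; -0.13 with the muscle covariate).

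Genes that act beside or downstream of these receptors had medians nearer 0, a difference that was not tested. The co-receptors and binding partners had a median log2 fold change of 0.15 over 25 tested genes. By edgeR at an unadjusted p under 0.05, 6 of the 25 were higher and 1 was lower (background 8.36% and 7%), and 0 were called. Among the 60 guidance genes these counts were 17 and 1 (28.3% and 1.67%). Of the 25, 8 lay entirely above the controls and 4 entirely below (background 10.2% and 11%). Of the 60, 12 and 1 did (20% and 1.67%), in each direction a smaller share than of the 25. DESeq2 called 1 of these partners higher and 0 lower (background 2.2% and 1.17%). Leading them were Sdc3, a heparan sulphate proteoglycan (0.22, edgeR adjusted p = 0.244), and the VEGF receptors Flt4 and Kdr (0.41 and 0.76, edgeR adjusted p = 0.260 and 0.261). Kdr had 35.0 ± 1.28 CPM in inhibition grafts and 20.6 ± 7.56 CPM in control grafts (SD, n = 3 each). Other guidance cues had a median of 0.11 over 15 tested genes. By the same edgeR threshold, 3 were higher and 1 was lower (background 8.36% and 7%). Of the 15, 4 lay entirely above the controls and 1 entirely below (background 10.2% and 11%), again larger shares than of the 60. DESeq2 called 2 of the 15 higher and 0 lower (background 2.2% and 1.17%). Among these cues Vcan, a matrix proteoglycan, had 1.03, the repulsive guidance molecule Rgmb -0.50 and the chemokine Cxcl12 0.74 (edgeR adjusted p = 0.222, 0.228 and 0.264).

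Cytoplasmic effectors had medians close to that of all genes. By that threshold 8.36% of all genes tested were higher and 7% lower, the background for each of these lists. Effectors of semaphorins and plexins had a median of -0.012 over 24 tested genes, with 3 higher and 2 lower. The actin-oxidising enzyme Mical2 had a log2 fold change of 0.61, the small GTPase Rac1 -0.25 and the collapsin response mediator Dpysl3 0.48 (edgeR adjusted p = 0.180, 0.228 and 0.275). For ephrins and Ephs the median was 0.057 over 24 genes, with 3 higher and 2 lower. Arhgef15 and Ngef, exchange factors that act downstream of Eph receptors, had 0.75 and 1.68, and the kinase Src had -0.32 (edgeR adjusted p = 0.174, 0.186 and 0.204). For Slits and netrins it was 0.031 over 24 genes, with 3 higher and 1 lower. The actin regulators Enah, Cap2 and Vasp had 0.35, 1.29 and -0.28 (edgeR adjusted p = 0.178, 0.195 and 0.226). For semaphorins and plexins, 3 of 24 genes lay entirely above the controls and 4 entirely below (background 10.2% and 11%). These counts were 5 and 1 of 24 for ephrins and Ephs, and 3 and 5 of 24 for Slits and netrins. By edgeR, none of these 3 lists had a called gene (0 each). DESeq2 called 1 of 24 genes higher for semaphorins and plexins, 1 of 24 for ephrins and Ephs, and 2 of 24 for Slits and netrins. It called 0 lower in each list (background 2.2% higher and 1.17% lower).

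Several host tissues had higher marker levels in the inhibition libraries. The median level of the 60 genes, in log2 CPM less the mean of the controls, was 0.37, 0.32 and 0.15 in the inhibition grafts, by replicate number, against -0.12, 0.086 and 0.064 in the control grafts. Skeletal muscle markers summed to 2704 to 4450.5 CPM in inhibition libraries and 925 to 2129 CPM in control libraries, with all 19 tested genes of 20 positive. By edgeR at an unadjusted p under 0.05, 13 of the 19 were higher (background 8.36%). Squamous epithelium markers summed to 1871 to 5514 CPM under inhibition and 1532 to 3160.3 CPM in controls (16 of 18 positive). Fibroblast and matrix markers summed to 3308 to 4113.5 CPM and 2047 to 2910 CPM (19 of 19 positive), endothelial markers to 338 to 386 CPM and 194 to 319 CPM (13 of 14), and pericyte and smooth muscle markers to 170.3 to 198 CPM and 116 to 140.4 CPM (6 of 8). At the same threshold, 17 of 19 fibroblast and matrix markers were higher, more than in muscle. The counts were 5 of 18 for epithelium, 5 of 14 for endothelium and 4 of 8 for pericytes and smooth muscle. Their part in the differences of guidance genes was not tested beyond the muscle covariate. Mean levels of muscle markers and of fibroblast and matrix markers ranked the 6 libraries in the same order. That covariate therefore does not separate muscle from fibroblast content.

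Tumour, nerve and immune cell markers did not share 1 direction. Melanocyte markers summed to 23189 to 28581 CPM in inhibition libraries and 16232 to 24366 CPM in control libraries (9 of 10 positive), so the defining genes of a pigmented melanoma were present. Schwann cell markers summed to 905 to 1022 CPM under inhibition and 928 to 961 CPM in controls (8 of 11 positive). Macrophage markers summed to 431 to 509.5 and 286 to 457 CPM (12 of 15 positive), and neutrophil markers to 15.1 to 40.1 and 50.04 to 118 CPM (0 of 13). T cell markers summed to 5.64 to 6.86 CPM under inhibition and 4.69 to 10.1 CPM in controls, with 1 of 10 genes tested. Neuron markers summed to 116 to 143 CPM in inhibition libraries and 156 to 285 CPM in control libraries, most of it from Tubb3. Of these 16 markers 4 were tested, and Snap25, Nefl, Syt1, Scn10a, Trpv1 and Calca averaged at most 0.054 CPM in either group, which is about 1 count per library.

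**Figure D4:**
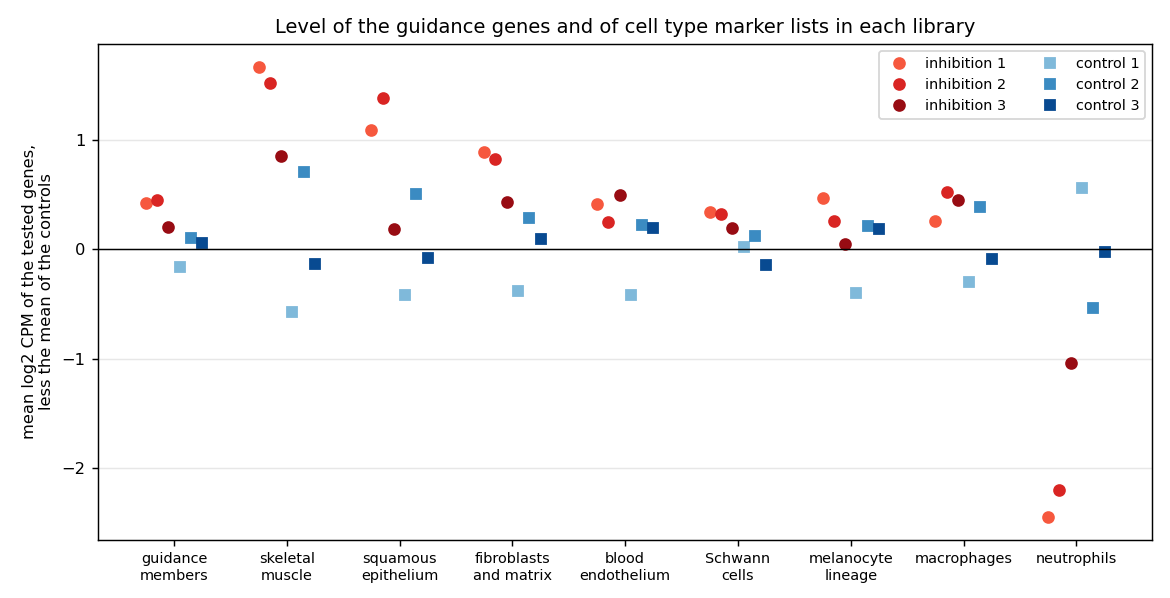
Mean log2 CPM of the tested genes of each list in each library, less the mean of the controls, for the guidance genes and 8 cell type marker lists; red circles are inhibition libraries and blue squares control libraries. Guidance genes, muscle, fibroblast and matrix markers lie lowest in control 1 and higher in inhibition 1 and 2, and neutrophil markers run the other way.

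The muscle covariate made most of the 17 positive differences smaller. Of the 17 genes first higher at an unadjusted p under 0.05, 11 remained positive, 6 turned negative and 0 kept an unadjusted p under 0.05. In the same fit, the genes of the whole table that were higher at that threshold numbered 191, against 1310 without the covariate, so the loss was general. The log2 fold changes of the 17 then ran from -0.39 for Epha4 to 1.003 for Sema6c. Sema3d, Sema6c and Robo2 kept 0.87, 1.003 and 0.77 of a log2 unit, and Sema6d, Ephb3 and Ephb1 came to 0.26, 0.21 and 0.12. The muscle level differed between the groups itself, so in this fit the group and the muscle content cannot be fully told apart.

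**Figure D5:**
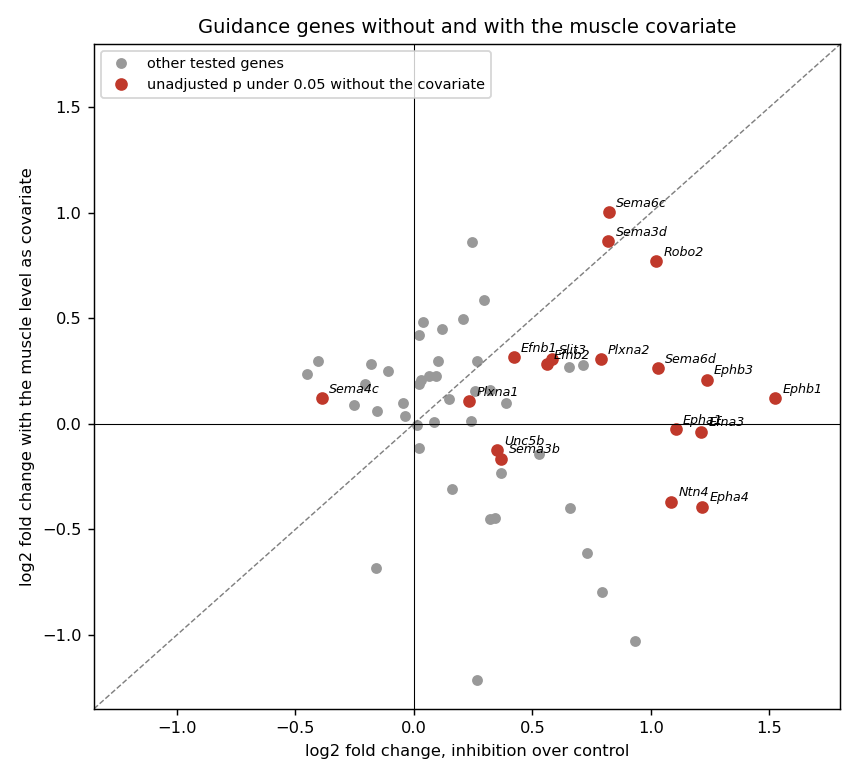
Log2 fold change of each of the 60 tested guidance genes without (x axis) and with (y axis) the muscle covariate; red marks an unadjusted edgeR p under 0.05 without it, and the dashed line marks equal values. Most red points lie below the dashed line, while Sema3d and Sema6c lie on or above it and Sema4c crosses to a positive value.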

How the data were processed

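RNA of 6 grafts was measured by sequencing, 3 with inhibition of the nociceptive nerves of the lymph nodes and 3 labelled as controls. The authors deposited raw read counts, 1 whole number per Ensembl gene and library, not normalized. The aligner HISAT2 2.0 and the build mm10 come from the submitters' processing notes. How reads were counted, filtered and assigned to strands is not given in the sources used here. Columns were mapped by name; those of the inhibition group speak of nociceptive denervation. Unused columns of per-sample values numbered 0. Of 55487 IDs, 55227 were found in GENCODE M21 (GRCm38, the assembly that mm10 names), which gave symbols, exon lengths and coordinates; the rest held 0.00197% of the counts.

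Libraries held 14477277 to 20972494 counts, so 1 count was worth 0.0476 to 0.0701 CPM. Genes were filtered with filterByExpr by group (minimum count 10, minimum total 15), scaled with TMM and compared, inhibition over control, by edgeR 4.0.16 in R 4.3.3 (robust quasi-likelihood test, Benjamini-Hochberg adjustment over all genes tested, threshold 0.05). Standard errors were taken as the size of the log2 fold change over the square root of F. CPM use TMM factors, and RPKM divide CPM by exon length. Levels of lists are mean log2 CPM (prior count 2).

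The members and the lists were chosen with earlier results of these data known. Values in every library are given, within each of 12 roles, for the gene of smallest p, every gene with an unadjusted p under 0.05 and the gene of highest RPKM, 26 in all; of pathway lists, for up to 3 genes of smallest p. Further genes named by level or as partners, and the split by level, were chosen after their values were seen. Promoters are RefSeq sequences of GRCm38.p6.

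On simulated counts for this comparison (15458 genes tested), 77% of the 100 genes given a 2-fold change and 92% of the 100 given a 4-fold change were recovered by the fit, which also called 14 of 15259 unchanged genes. The changed genes were drawn from those with a mean over 1 CPM. Counts were simulated for each gene independently, without tissue variation shared between genes, so recovery in the real grafts can differ. Alternatives were RLE factors, no filter and a stricter filter, limma-voom (limma 3.58.1), DESeq2 1.42.0, leaving out each library, a block for the replicate number, the muscle level as a covariate, and muscle and epithelium genes left out before scaling.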

Additional observations from a re-analysis of the deposited data

How the results depend on the processing

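The count of 6 called genes was 6 with RLE factors, with the stricter filter, and with muscle and epithelium genes left out. It became 1187 without the filter on low counts, 527 with DESeq2, 14 with the replicate block, and 0 with limma-voom or the muscle covariate (at an unadjusted p under 0.05 limma-voom had 1366 genes higher and 1064 lower, and the covariate fit 191 and 318). Leaving out single libraries gave 0 to 217 calls: 0 without inhibition 1, inhibition 2 or control 3 (where an unadjusted p under 0.05 was reached upward by 770, 772 and 1094 genes and downward by 655, 933 and 1094), 217 without inhibition 3, 11 without control 1 and 24 without control 2. The count of guidance genes called was 0, but 11 without the filter (9 higher, 2 lower) and 2 with DESeq2, and it was 0 in every fit that left out 1 library. The median log2 fold change of the guidance genes was 0.27 and ran from 0.18 to 0.35 when single libraries were left out. With the muscle covariate it was 0.14. Over the 55 genes at the filter in every library of both groups, an alternative chosen after seeing the data, it was 0.26, and 0 were called (an unadjusted p under 0.05 was reached upward by 15 and downward by 1).

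Among the 26 genes named with values, the muscle covariate turned the sign of Sema3b (-0.16), Sema4c (0.12), Efna3 (-0.036), Epha1 (-0.025) and Epha3 (-0.31). It also turned that of Epha4 (-0.39), Ephb4 (0.10), Ntn3 (-0.11), Ntn4 (-0.37) and Unc5b (-0.13). Over all 60 tested guidance genes, the log2 fold changes of that fit ran from -1.21 to 1.003, with 41 positive and 19 negative. The cause was not tested. Leaving out single libraries turned genes near 0: Efna5 ran from -0.033 to 0.083, Ephb4 from -0.14 to 0.0048, Robo1 from -0.011 to 0.18 and Ntn3 from -0.012 to 0.051. Over the 26 genes named with values and all alternatives, 335 fitted values kept direction and side of the threshold, 18 changed sign, and 11 gained a call (9 without the filter, 2 with DESeq2).

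Deviations of same-numbered grafts from their group means correlated at -0.18, 0.33 and 0.087. Those of differently numbered grafts ran from -0.39 to 0.30. With 3 grafts per group, these values cannot show whether the replicate number pairs the grafts. With the replicate block 16 guidance genes were higher at an unadjusted p under 0.05, against 17 without it. Depth limits the genes under about 1 CPM, where 1 count moves a value by 0.0476 to 0.0701 CPM.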
